A study of Mus musculus with 4 samples.

Results

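Procr+ Mecom+ cells are blood cells of stem-like expression that were captured in a sort aimed at type H vessel endothelium of mouse bone marrow. They were taken from the raw count matrices of the Sca-1-positive gate by a fixed rule on unique molecular identifiers (UMIs, 1 per captured transcript). A cell had to hold at least 200 genes, under 10% mitochondrial UMIs, at least 3500 UMIs, at least 1 Procr UMI and at least 1 Mecom UMI. It also had to hold 0 UMIs of Flt3 and Cldn5, under 3 of Pf4 and Ppbp together, under 2% Jchain and under 3 over 11 cell cycle genes. The rule kept 376 of the 2663 cells of this gate and of the 3567 cells of the whole series. They numbered 153 of 806 in the control library (19%, exact Clopper-Pearson 95% interval 16.3 to 21.9) and 223 of 1857 in the library labelled knockout (12%, 10.6 to 13.6). Pairs of values are given as the control first and the library labelled knockout second. All intervals given here cover counting error only. The UMI floor bears on these shares: 749 of 806 and 1467 of 1857 cells passed it, and the cells outside the set held medians of 6445 and 5493 UMIs.

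Both libraries of the gate hold cells labelled as H vessel cells, sorted for CD31, VE-cadherin, endomucin and Sca-1 after exclusion of cells with lineage markers. Every mouse carried CDH5-CreER, a tamoxifen-inducible Cre under the promoter of VE-cadherin (gene Cdh5), and tamoxifen was injected on 5 consecutive days in both groups. The control, titled WT, is ID1+/+ ID3+/-, so it has 1 intact Id3 allele, and the other group is ID1-/- ID3-/-. The Cre driver acts in endothelium, so blood cells of the second group need not have lost Id1, and whether they did was not tested. The sources used here do not state how many mice were pooled, nor where the deleted part of either gene lies relative to the counted reads. Each group is 1 library, so no value below has a replicate check and no difference between the labels was tested. The 2 libraries of the Sca-1-negative gate, labelled sinusoidal cells, held 1 such cell of 351 (0.285%) and 0 of 553, with an exact upper 95% limit of 0.665% (3 counts of the total, the floor for a count of 0, are 0.542%).

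Haematopoietic stem cells are rare bone marrow cells that renew themselves and give rise to every blood lineage. Most of them rest outside the cell cycle, and as they differentiate they pass through Flt3-positive multipotent progenitors. Procr, the endothelial protein C receptor, Mecom, a zinc-finger transcription factor, and Hlf, a bZIP transcription factor, are widely used marks of the stem cell end of this series. Id proteins are helix-loop-helix proteins without a DNA-binding region; they pair with E proteins such as Tcf3 and Tcf4 and keep them off E-boxes, the DNA letters CANNTG.

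The first 250 bases upstream of the start annotated by RefSeq are shown for Procr and Mecom, which the rule used. They are also shown for Hlf and Pdzk1ip1, stem cell genes that it did not use. The letters are from RefSeq on GRCm38.p6 (mm10), written 5′ to 3′ on the strand of the gene. Capitals mark each match, searched on both strands, to the E-box CANNTG, to the AP-1 motif TGACTCA bound by Fos and Jun proteins, or to the CRE motif TGACGTCA. No match overlapped another. For Mecom, which has 2 entries, the one nearest the annotated 5′ end is shown. Its window still lies inside the gene, whose 5′ end is annotated at base 30548008.
Procr (chr2:155750967-155751216, plus strand): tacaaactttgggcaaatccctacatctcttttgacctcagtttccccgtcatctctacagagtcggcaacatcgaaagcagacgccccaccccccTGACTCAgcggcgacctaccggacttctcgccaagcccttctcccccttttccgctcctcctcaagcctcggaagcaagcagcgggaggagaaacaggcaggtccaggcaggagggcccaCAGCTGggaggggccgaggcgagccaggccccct
Mecom (chr3:30509760-30510009, minus strand): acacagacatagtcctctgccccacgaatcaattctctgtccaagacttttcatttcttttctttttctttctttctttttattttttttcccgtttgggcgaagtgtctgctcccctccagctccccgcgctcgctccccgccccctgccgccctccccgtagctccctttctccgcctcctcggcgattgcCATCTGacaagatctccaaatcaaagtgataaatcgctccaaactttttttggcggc
Hlf (chr11:90390918-90391167, minus strand): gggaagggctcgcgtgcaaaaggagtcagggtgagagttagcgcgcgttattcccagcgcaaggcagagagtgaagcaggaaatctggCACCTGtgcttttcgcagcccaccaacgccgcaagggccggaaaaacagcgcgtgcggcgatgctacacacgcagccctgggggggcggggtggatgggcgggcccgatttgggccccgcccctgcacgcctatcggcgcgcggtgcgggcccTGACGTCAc
Pdzk1ip1 (chr4:115088458-115088707, plus strand): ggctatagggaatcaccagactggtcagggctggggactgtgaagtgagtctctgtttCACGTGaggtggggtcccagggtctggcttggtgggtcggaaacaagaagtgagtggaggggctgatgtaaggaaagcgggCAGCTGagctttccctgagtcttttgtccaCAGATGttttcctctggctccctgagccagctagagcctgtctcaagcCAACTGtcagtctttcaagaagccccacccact
Procr held 1 E-box, CAGCTG at 34 bases upstream, and 1 AP-1 motif at 154. Mecom held CATCTG at 57, and Hlf held CACCTG at 162 and a CRE motif at 9. Pdzk1ip1 held 4 E-boxes: CACGTG at 192, CAGCTG at 111, CAGATG at 81 and CAACTG at 33. Of 32851 such windows over all genes, 66.2% held an E-box, 4.46% the AP-1 motif and 1.55% the CRE motif, so an E-box is common in windows of this length. A match describes letters and is no measured binding.

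The depth of the Procr+ Mecom+ cells was close in both libraries. They held a median of 6365 UMIs and 2351 genes in the control (UMIs from 3527 to 11578) and of 6061 UMIs and 2204 genes in the library labelled knockout (3567 to 14834). Their UMIs summed to 1008425 and 1373944, of library totals of 5703108 and 11065352. The median mitochondrial share was 3.70% and 3.65%. Only 4 barcodes occurred in more than 1 of the 4 libraries, and 1 of them, shared by both libraries of this gate, was a Procr+ Mecom+ cell. Doublets stayed in: Scrublet marked 1 of 806 and 3 of 1857 cells, too few to have worked, and Xist and Y-linked UMIs occurred together in 4 of 153 (2.61%) and 4 of 223 (1.79%).

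The genotype labels were checked first on their own genes. Id1 (GRCm38, chr2:152736251-152737410, plus strand) had 0 UMIs in the control cells and 8 UMIs, in 4 cells (1.79%), in the library labelled knockout. Id3 (chr4:136143497-136145755, plus strand) stood at 32.7 CPM (UMIs of a gene per 1000000 UMIs) in the control and at 96.8 CPM in the library labelled knockout, a ratio of 2.96 (exact conditional 95% interval 2.01 to 4.47). It was seen in 8.50% and 27.4% of cells thinned to 3500 UMIs, and in 2.33% and 3.26% of plasma cells, which gauge free RNA. Id3 runs against the labels, and Id1 was at or near 0 in both libraries. Every direction between the libraries below rests on those labels, and "control" and "labelled knockout" are used as names of libraries only.

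The labelled cell type was checked on its defining genes. Cdh5, the gene of the VE-cadherin used in the sort, had 0 UMIs in all 376 cells. In each library 8 of 15 endothelial markers were at 0, among them Flt1, Plvap, Ptprb, Lyve1 and Sox17 beside Cdh5 and the excluded Cldn5. The list summed to 224 and 258 CPM, and some members ran the other way. In the labelled knockout 3 of 4 with at least 50 UMIs were at least 1.5-fold above the other cells (608 of 10168 genes were). In the control 0 of 2 were (688 of 8530 genes). Medians of the 2 measured in both libraries were 0.45 and 0.59 on the log2 scale. The 8 pan-haematopoietic markers, such as Ptprc (CD45), summed to 1906 and 1688 CPM, and at least 2 of them were seen in 153 of 153 and in 219 of 223 cells. The other sort antigens were present: Emcn (endomucin) at 57.5 and 61.1 CPM, in 30.7% and 31.8% of cells, and Pecam1 (CD31) at 41.6 and 39.3 CPM. Ly6a, the gene of Sca-1, stood at 441 and 376 CPM, below the 937 and 747 CPM of the other cells of the gate. By these genes the cells are haematopoietic, against the label of vessel cells.

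The markers used by the rule set its own levels and are given as a description. Procr stood at 264 and 263 CPM and Mecom at 248 and 247 CPM. Most cells passed narrowly: exactly 1 Procr UMI was held by 86 of 153 and 135 of 223 cells, exactly 1 Mecom UMI by 87 and 143, and no cell held more than 5 Procr or 6 Mecom UMIs. Hlf was not part of the rule. It stood at 331 CPM (297 to 369) and 369 CPM (338 to 403), and at least 1 UMI was seen in 83.7% and 82.5% of the cells, with at most 9 in a cell. After each cell was thinned to 3500 UMIs the Hlf share was 68.0% and 68.6%. In plasma cells, which should lack Hlf and so gauge free RNA in the droplets, it was 2.33% and 4.35% (86 and 92 thinned cells, after 5 and 9 of the 91 and 101 plasma cells were left out as shallower; median 6785 and 7473 UMIs before thinning). Thinned shares of Hlf were thus far above that background in both libraries.

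Hlf did not set these cells apart from their nearest neighbours. Flt3-positive cells that passed the same floor and exclusions (118 and 253 cells) held 344 and 382 CPM of Hlf. The ratio of Procr+ Mecom+ over Flt3-positive cells was 0.963 (0.820 to 1.13) in the control and 0.967 (0.858 to 1.09) in the labelled knockout. Cells that held a Procr but no Mecom UMI and otherwise passed (125 and 234) stood at 353 and 316 CPM. Cells with Mecom and no Procr UMI (90 and 165) stood at 351 and 312 CPM, and cells with neither (79 and 218) at 229 and 294 CPM. Inside the rule, cells with exactly 1 UMI of each gene (55 and 87) stood at 278 and 375 CPM. Values just inside and just outside the rule thus overlapped. Of cells that met every other condition, 31 and 56 were left out for a Flt3 UMI, 6 and 27 for a Cldn5 UMI, and 0 and 6 because they fell up to 500 UMIs short of the floor.

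Against all other kept cells of the same library, 134 of 8520 genes with at least 50 UMIs in each library were at least 1.5-fold higher in the Procr+ Mecom+ cells in both libraries (1.57%), and 512 were at least 1.5-fold lower (6.01%). These contrasts describe the cells the rule chose and carry no test. The other cells include plasma cells, neutrophil precursors and cycling progenitors, and Jchain alone made up 33535 and 17423 CPM of their UMIs. A narrower comparison used matched cells, which passed the UMI floor and every exclusion except that on Flt3, and either lacked a Procr or Mecom UMI or held Flt3 (412 and 870 cells). Against them 16 of 7279 genes were higher (0.22%) and 105 lower (1.44%), and against Flt3-positive cells 75 of 4820 were higher (1.56%) and 108 lower (2.24%).

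**Figure D1:**
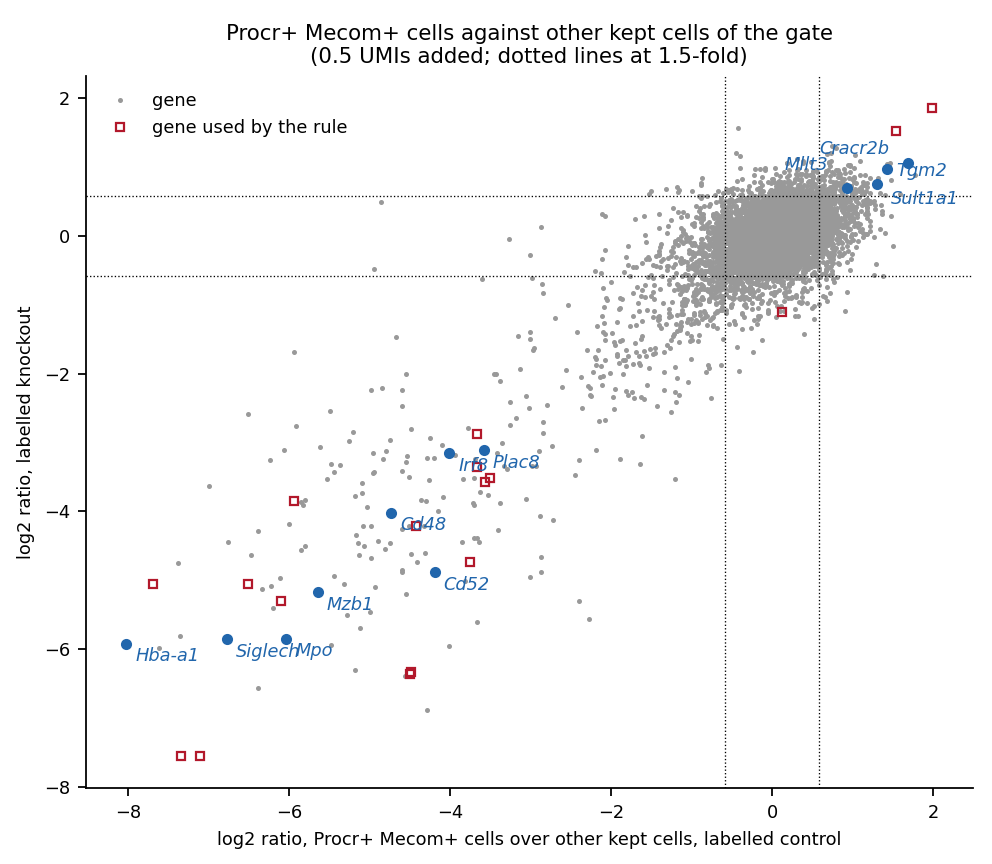
Each point is a gene with at least 50 UMIs in each library, placed by the log2 ratio of Procr+ Mecom+ cells over all other kept cells in the control (x) and in the labelled knockout (y). Dotted lines mark 1.5-fold, squares mark genes used by the rule, and named genes are in blue. Named genes higher in the cells, such as Tgm2 and Sult1a1, lie closer to 0 than the lowest ones, such as Siglech, Mpo and Hba-a1.

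Several stem cell genes that the rule did not use were higher than in the other cells. No gene outside the rule lay more than 2-fold higher by its interval in both libraries, so the 20 with the highest lower bounds were taken after their values were seen, and several are described here. Pdzk1ip1, a small membrane-associated protein, stood at 422 and 386 CPM against 206 and 228 CPM in the other cells, ratios of 2.05 (1.83 to 2.30) and 1.70 (1.54 to 1.86). It was seen in 75.8% and 71.7% of thinned cells, against 4.65% and 5.43% of plasma cells. Trim47, a ubiquitin ligase of the tripartite motif family, stood at 266 and 306 CPM against 131 and 171. Tgm2, the protein cross-linking enzyme tissue transglutaminase, stood at 153 and 138 CPM against 56.8 and 70.2. Its ratio was 2.69 (2.19 to 3.29) and 1.96 (1.66 to 2.31). Sult1a1, a sulfotransferase, stood at 200 and 215 CPM against 81.2 and 127. Cracr2b, Clec1a, Nupr1, Vegfc, Mllt3, Nr4a2 and Meg3 were also among the 20. The remaining ones were Mmrn1, Uba7, Ifitm1, Klf9, Gda, Pik3r1, Net1, Ppp1r15a and 9530082P21Rik, with ratios from 1.46 for Ppp1r15a in the labelled knockout to 2.77 for Gda in the control.

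Against Flt3-positive cells the same genes stood further apart. Sult1a1 was 10.4-fold (6.24 to 18.5) and 3.33-fold (2.65 to 4.21) higher, from 19.3 and 64.5 CPM. Tgm2 was 5.75-fold (3.67 to 9.45) and 2.89-fold (2.21 to 3.83) higher, from 26.5 and 47.6 CPM. Nupr1, a small stress-induced chromatin protein, stood at 75.4 and 91.7 CPM, 10.4-fold (4.57 to 29.3) and 3.96-fold (2.73 to 5.88) above Flt3-positive cells. Clec1a, a C-type lectin receptor, stood at 95.2 and 148 CPM against 25.3 and 33.2. Of the 27 genes of the list of other stem cell associated genes, 20 had enough UMIs in both libraries for this contrast. Among them 11 were at least 1.5-fold higher and 0 lower in both libraries, beside 1.56% and 2.24% of all genes. The list medians were 1.0 and 0.67 on the log2 scale, while the medians over all genes were -0.03 and -0.04. The Flt3-positive cells are set apart by Flt3, which the rule used. Against matched cells 1 of 23 genes of the list was higher and 0 lower, beside 0.22% and 1.44% of all genes. The list medians there were 0.30 and 0.29.

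The excess was smaller against matched cells. Of these, 118 of 412 and 253 of 870 were the Flt3-positive cells that the rule left out. In those cells Tgm2 and Nupr1 were far lower, as given above. The excess over matched cells without Flt3 was not tested. Tgm2 was 1.89-fold (1.53 to 2.34) and 1.59-fold (1.34 to 1.89) higher, against 80.7 and 86.4 CPM. Cracr2b, a regulator of store-operated calcium channels, stood at 41.6 and 47.3 CPM against 16.1 and 27.1, a ratio of 2.58 (1.65 to 4.03) and 1.74 (1.28 to 2.35). Vegfc, a vascular growth factor, stood at 34.7 and 34.2 CPM against 18.3 and 20.8. Besides Procr and Mecom the 16 higher genes were Tgm2, Cracr2b, Nupr1, Vegfc, Rasgef1b, Xdh, Exoc6b, Aktip, Yars2, Jam3, Chil5, Klhl4, Smtnl1 and 9530082P21Rik. Jam3 is a junctional adhesion molecule and Xdh is xanthine dehydrogenase. All of these were named after their values were seen, and the intervals of Smtnl1, Klhl4, Chil5, Exoc6b, Jam3 and Xdh reached below 1 in at least 1 library.

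**Figure D2:**
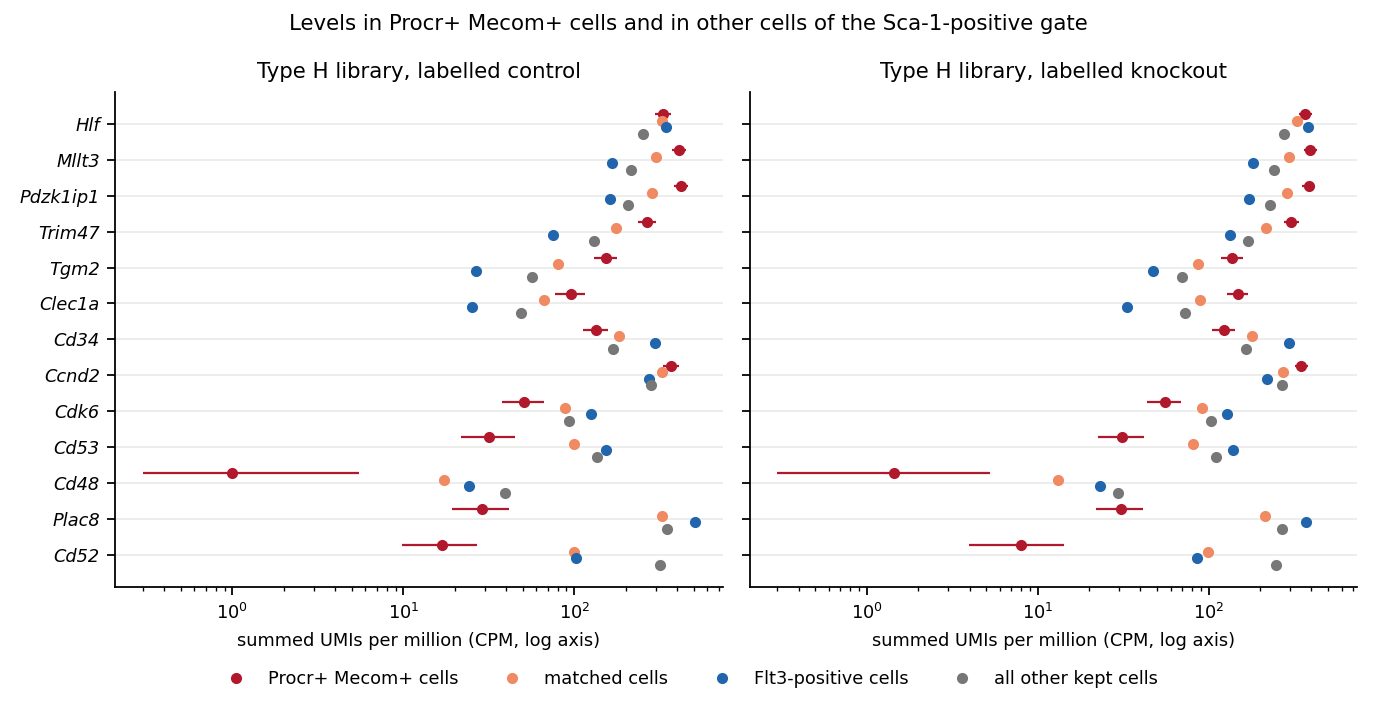
CPM on a log axis of 13 genes in the control (left) and the labelled knockout (right), for Procr+ Mecom+, Flt3-positive, matched and all other kept cells; bars are exact Poisson 95% intervals on the Procr+ Mecom+ cells, and for Cd48 their lower ends reach further left than drawn. Tgm2 lies highest in the Procr+ Mecom+ cells and Plac8 and Cd52 lie lowest there, in both libraries.

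Transcription factors of stem cells were at least 1.5-fold above the other cells in both libraries for 3 of the 27 not used by the rule (Hoxb5, Tcf15 and Mllt3), with list medians of 0.41 and 0.41 against 0.06 and 0.02 over all genes, of which 1.57% were as high. Against matched cells 0 of 27 were (0.22% of all genes were), with medians of 0.12 and 0.16. Mllt3 (AF9), a subunit of the super elongation complex that maintains stem cells, stood at 411 and 394 CPM against 216 and 242 CPM. It was seen in 69.9% and 65.0% of thinned cells and in 15.1% and 18.5% of plasma cells. Mllt3 also varied around the rule: cells with neither Procr nor Mecom held 281 and 299 CPM, and those left out for a Cldn5 UMI held 605 and 643 CPM. Tcf15, which is linked to long-term stem cells at rest, stood at 60.5 and 54.6 CPM against 28.1 and 34.8. Hoxb5, a homeobox factor, was sparse, at 18.8 and 18.9 CPM against 9.07 and 12.2. Meis1, a homeobox partner of Hox proteins, stood at 347 and 306 CPM against 228 and 238, under the 1.5-fold line in the labelled knockout. Gata2 stood at 221 and 257 CPM against 156 and 190, and Lmo2, a bridging cofactor that joins Gata and Tal1 proteins, was abundant at 1490 and 1443 CPM.

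Surface genes divided. Cd48, a surface protein that long-term stem cells lack, had 1 and 2 UMIs in all, against 39.3 and 29.4 CPM in the other cells and 17.2 and 13.2 CPM in matched cells. Slamf1 (CD150), the partner mark of CD48 in sorting stem cells, was seen in 12.4% and 9.87% of cells at 22.8 and 19.7 CPM. Thinned, its shares were 6.54% and 5.83% against 3.49% and 1.09% of plasma cells. Cd34, which is low on long-term stem cells of adult mice, stood at 134 and 123 CPM against 298 and 294 CPM in Flt3-positive cells, a ratio of 0.449 (0.361 to 0.556) and 0.418 (0.349 to 0.50). Cells without a Flt3, Procr or Mecom UMI that otherwise passed held 142 and 139 CPM of Cd34. Its low level was thus shared with neighbours that lack Flt3, which the rule used. Of the 25 surface genes with enough UMIs, 3 were higher than in the other cells in both libraries (Jam2, Jam3 and Clec1a) and 2 lower (Cd48 and Ly6a). Over all genes 1.57% were higher and 6.01% lower. Plasma cells, which are among the other cells, held Ly6a in 100% and 96.7% of thinned cells, and against matched cells its ratio was 0.968 and 0.899. Several further stem cell genes were sparse: Fgd5, a reporter gene of stem cells, had 24 and 21 UMIs, Vwf 22 and 32, and Ctnnal1 23 and 17. Hoxb5 and Jam3, counted as higher above, were of like sparsity. Fgd5 stood at 23.8 and 15.3 CPM, against 14.5 and 19.7 in cells with neither Procr nor Mecom, so its direction differed between the libraries. Ctnnal1 stood at 22.8 and 12.4 CPM against 8.26 and 4.92.

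**Figure D3:**
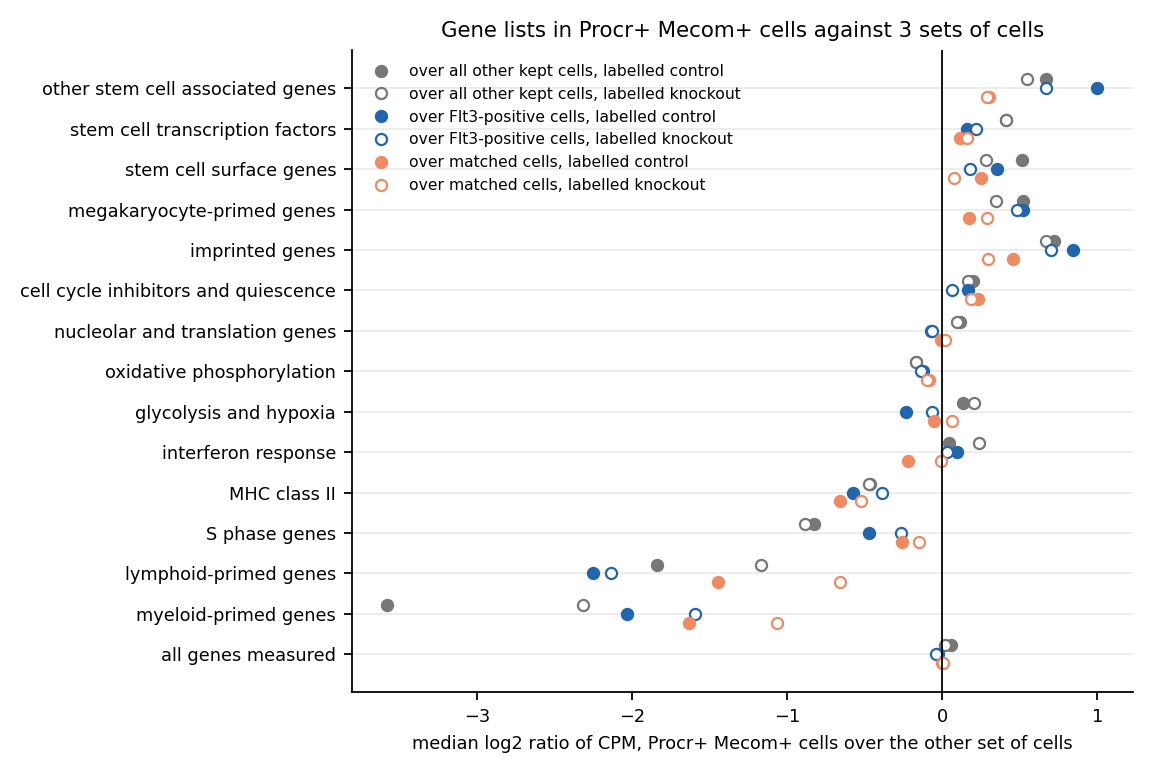
Median log2 ratio of Procr+ Mecom+ cells over all other (grey), Flt3-positive (blue) and matched (orange) cells for 14 gene lists and for all genes; filled points are the control and open points the labelled knockout. Lists of stem cell genes lie above 0, and lymphoid-primed and myeloid-primed lists lie below it in every contrast shown.

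Genes of committed progenitors are described against matched cells. Against matched cells 7 of 14 measured lymphoid-primed and 7 of 11 myeloid-primed genes were at least 1.5-fold lower in both libraries, and 0 of either were higher (1.44% of all genes were lower). The matched cells include the Flt3-positive ones, which the rule left out, and a gene nearly absent from the Procr+ Mecom+ cells was measured mostly through the matched cells, so these counts are a description. Plac8, a small cysteine-rich protein of early progenitors and leukocytes, stood at 28.8 and 30.6 CPM against 326 and 213 CPM in matched cells, ratios of 0.0881 (0.0587 to 0.127) and 0.143 (0.103 to 0.195). Irf8, the transcription factor of monocyte and dendritic fate, stood at 8.92 and 8.73 CPM against 199 and 97.3. Cd52, a leukocyte surface peptide, stood at 16.9 and 8.01 CPM against 99.0 and 98.8. Cd53, a tetraspanin of leukocytes, stood at 31.7 and 31.3 CPM against 99.3 and 81.2. Siglech, Mpo, Ly86 and Ccr9 had 0 UMIs in both libraries, while Flt3-positive cells held 112 and 64.5 CPM of Siglech, a surface lectin of plasmacytoid dendritic cells. Dntt and Il7r, early lymphoid genes, had 1 UMI each in each library, and the erythroid factor Gata1 had 0.

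Matched cells still held other lineages. Tyrobp, a signalling adaptor of myeloid and NK cells, stood at 5.95 and 14.6 CPM in the Procr+ Mecom+ cells and at 292 and 124 CPM in matched cells, and Hbb-bs, a beta-globin, stood at 11.9 and 21.1 against 1686 and 1356 CPM.

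The rule itself left out cells high in cell cycle, Jchain or platelet UMIs and cells with any Flt3 or Cldn5 UMI, so low values of genes of such cells follow from the choice of cells. A gene at 0 here had the needed UMIs through the other cells alone. By the interval rule 170 genes lay more than 2-fold lower in both libraries, and 15 are named. Prc1, a mitotic spindle protein, and Neil3, a DNA repair enzyme of dividing cells, had 0 UMIs in both libraries against 41.5 and 34.3 CPM of Prc1 and 22 and 22.3 CPM of Neil3. Hba-a1 stood at 0.992 and 5.82 CPM against 386 and 375, and its near-identical copy Hba-a2 followed it. Camp, an antimicrobial granule protein of neutrophils, stood at 2.97 and 6.55 CPM against 256 and 293. Mzb1, a plasma cell protein, stood at 19.8 and 16.0 CPM against 1017 and 592, and Cd79a, part of the B cell receptor, at 3.97 and 5.82 against 333 and 209. The others named were Siglech, Mpo, Ly86, Ccr9, Hbb-bs, St6gal1, Gm43291 and BC035044.

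Of 6 measured antigen presentation genes of class II, 2 were at least 1.5-fold lower than in matched cells in both libraries (1.44% of all genes were). Cd74, the invariant chain, stood at 370 and 418 CPM against 832 and 821 CPM in matched cells, and H2-Ab1 at 130 and 148 against 307 and 249. Of 14 class I genes measured against the other cells, 0 were higher and 0 lower, beside 1.57% and 6.01% of all genes. The list medians were 0.01 and -0.07. Some genes named for later cells were abundant: Prtn3, a primary granule protease, stood at 943 and 1044 CPM and was seen in 92.2% and 91.9% of thinned cells, against 5.81% and 18.5% of plasma cells. Its log2 ratio over Flt3-positive cells was -0.41 and -0.27, so its abundance is not particular to the Procr+ Mecom+ cells. Car2, carbonic anhydrase II, stood at 1611 and 1415 CPM and was seen in 96.7% and 96.4%, against 16.3% and 26.1%. Megakaryocyte-primed genes, of which Pf4 and Ppbp were limited by the rule, had medians of 0.52 and 0.35 over the other cells. Of 14 measured, 0 were past 1.5-fold in both libraries, beside 1.57% of all genes on the higher side.

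Cell cycle genes were low in part by the rule, which capped 11 genes of mitosis. Among S phase genes, which it did not use, 13 of 22 were at least 1.5-fold lower than in the other cells in both libraries. Against matched cells, which passed the same cap, 2 of 14 were. The shares of all genes as low were 6.01% and 1.44% in these contrasts. Mcm5, a helicase subunit of DNA replication, stood at 6.94 and 7.28 CPM against 20.2 and 15.9 in matched cells. Cdk6, a G1 kinase whose level is low in long-term stem cells, stood at 50.6 and 55.3 CPM against 88.7 and 91.2 CPM in matched cells, a ratio of 0.570 (0.413 to 0.774) and 0.607 (0.470 to 0.774). Its partner Ccnd2 stood at 368 and 349 CPM against 326 and 273. Cdkn1c (p57), an imprinted inhibitor of cyclin-dependent kinases, stood at 120 and 101 CPM against 54.6 and 66.0 CPM in the other cells and 72.6 and 82.7 CPM in matched cells. With Meg3, Ndn and Sgce it formed the 4 of 9 measured imprinted genes that were at least 1.5-fold higher than in the other cells in both libraries, with list medians of 0.72 and 0.67. Against matched cells 0 of 7 were past that line in both libraries. The shares of all genes as high were 1.57% and 0.22% in these contrasts.

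Housekeeping and stress lists lay near the other cells. At least 1.5-fold higher in both libraries were 0 of 17 glycolysis and hypoxia, 0 of 22 oxidative phosphorylation, 0 of 15 nucleolar and translation, 0 of 20 lysosome and autophagy and 0 of 16 oxidative stress genes. Only 1.57% of all genes were as high, so counts of 0 in lists of this size say little. Lower were Ndufa1, a subunit of respiratory complex I, at 76.4 and 75.7 CPM against 203 and 176, and Ctsb, the lysosomal protease cathepsin B, at 173 and 151 CPM against 264 and 236. Medians over the other cells were 0.14 and 0.20 for glycolysis and hypoxia and -0.17 and -0.17 for oxidative phosphorylation. In the contrast with matched cells 0 of 22 oxidative phosphorylation genes were at least 1.5-fold lower in both libraries (1.44% of all genes were). Ctsb was not among the 105 genes lower than in matched cells. Of 9 Id and E protein genes measured, only Id2 was at least 1.5-fold lower than in the other cells in both libraries, at 14.9 and 17.5 CPM against 24.0 and 32.2. In the contrast with matched cells 0 of 7 measured genes of this list were. The shares of all genes as low were 6.01% and 1.44% in these contrasts. Tcf4, an E protein of dendritic and lymphoid fate, stood at 76.4 and 85.9 CPM against 135 and 116 in the other cells. The E protein genes Tcf3 and Tcf12 stood at 82.3 and 64.8 CPM and at 44.6 and 37.8 CPM.

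Cells within the set varied most in a few genes. In cells thinned to 3500 UMIs the Fano factor (variance over mean, 1 for pure counting) had a median of 1.03 in each library over 1707 genes, and 95% of genes lay below 1.52 and 1.51. Hlf ran from 0 to 5 and 7 UMIs with a median of 1 in each library, and Mllt3 from 0 to 6 and 10. Meg3, an imprinted long noncoding RNA, had Fano factors of 5.69 and 7.62: it was seen in 15% and 17.9% of cells (plasma 0% and 1.09%), reached 11 and 19 UMIs, and the 15 and 22 cells with the most held 91.0% and 86.7% of its UMIs. It was shared with Hlf in 16 of its 23 and 29 of its 40 cells, near the Hlf share over all the cells, 68.0% and 68.6%. Klf2, a zinc-finger factor of resting cells, had Fano factors of 6.97 and 10.8 and a maximum of 28 and 30 UMIs. Fos, an AP-1 subunit that is quickly induced by outside signals, had a median of 2 and 3 and a maximum of 25 and 31 UMIs. Jun was seen together with Fos in 62 of 153 and 111 of 223 cells. Alone or together, Jun was seen in 47.1% and 56.1% of cells and Fos in 71.2% and 81.6%.

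**Figure D4:**
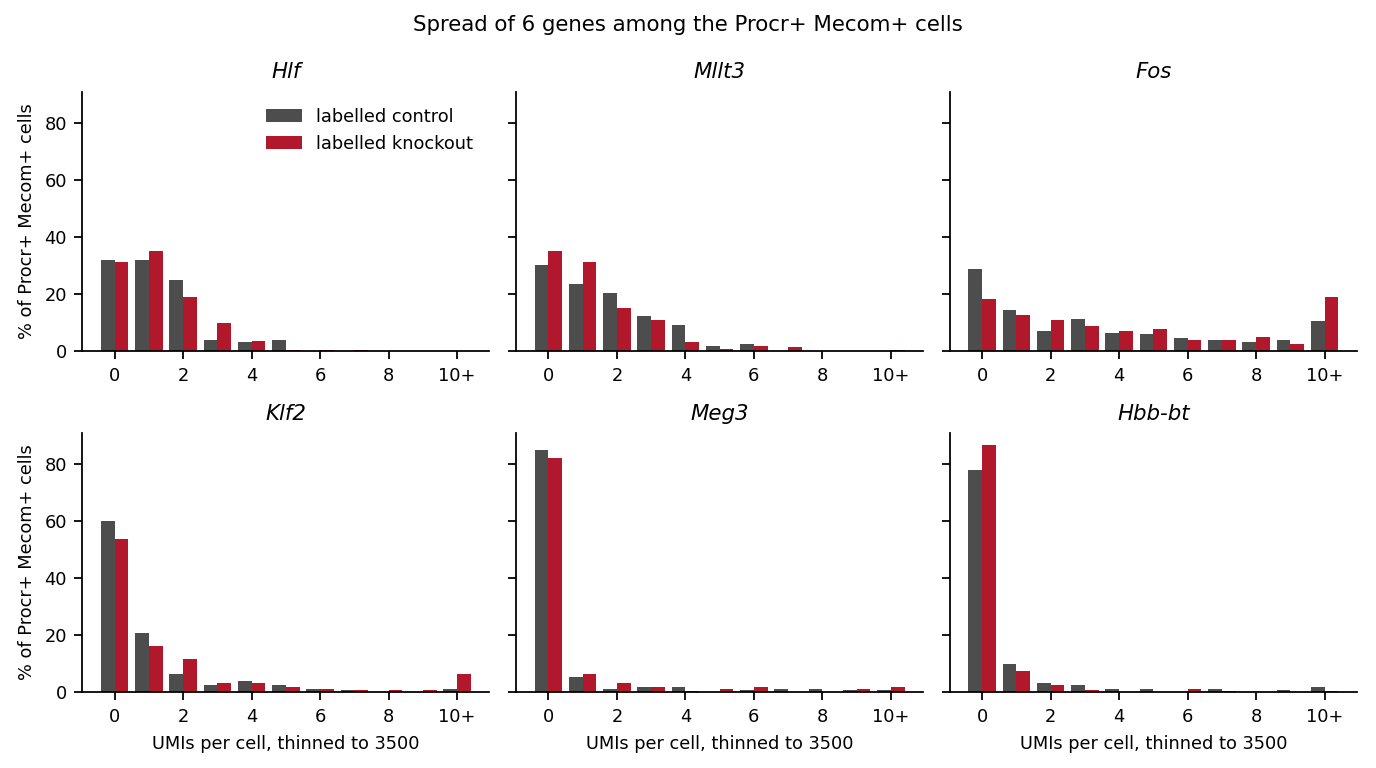
Share of Procr+ Mecom+ cells by the number of UMIs of Hlf, Mllt3, Fos, Klf2, Meg3 and Hbb-bt per cell, after thinning to 3500 UMIs; the last bin holds 10 or more, and colours give the library. Hlf and Mllt3 spread around 1 UMI, whereas Meg3 and Hbb-bt are at 0 in most cells and high in a few.

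Between the libraries, 209 of 5644 genes were at least 1.5-fold higher in the Procr+ Mecom+ cells of the library labelled knockout (3.7%) and 228 at least 1.5-fold lower (4.04%). Scaled by the median ratio over genes in place of the total, the counts were 270 higher and 161 lower, so the balance of directions depends on the scaling. Several stem cell genes that the rule did not use were close. Pdzk1ip1, Mllt3 and Trim47 had ratios of 0.915, 0.959 and 1.15, and Hlf had 1.11 (0.968 to 1.28). The list medians were 0.02 for stem cell transcription factors, -0.09 for surface genes and -0.00 for other stem cell associated genes, beside -0.05 over all genes. The first 2 lists include Mecom and Procr, which the rule used. Past 1.5-fold among these lists were the transcription factors Hoxb4 at 1.57 (0.994 to 2.53) and Nfix at 1.53 (1.07 to 2.23) and the surface genes Clec1a at 1.56 (1.22 to 2.01), with 95.2 and 148 CPM, and Vldlr on the lower side. Mycn, a Myc family factor, stood at 165 and 110 CPM, a ratio of 0.668 (0.532 to 0.837) that fell just short of 1.5-fold.

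Immediate-early genes, which respond within minutes to outside signals, were the list with the most genes on the higher side. Of 25 measured, 11 were at least 1.5-fold higher and 0 lower, with a median of 0.49, and their summed level was 6861 and 9824 CPM. The same list was also higher elsewhere in the gate: Flt3-positive cells had 12 of 25 higher and a median of 0.56, where 4.61% of all genes were higher. The other cells had 10 of 27 and a median of 0.48, where 4.09% of all genes were. Cebpb, a bZIP factor of emergency granulopoiesis, stood at 33.7 and 170 CPM, a ratio of 5.03 (3.50 to 7.44), and was seen in 11.8% and 35.0% of thinned cells. Plasma cells of the same libraries showed it in 8.14% and 33.7%, so in the labelled knockout its share in these cells was near that in plasma cells; the part of free RNA in it was not tested. It was also higher in Flt3-positive (4.64-fold) and other cells (4.59-fold). Jund, an AP-1 subunit, stood at 530 and 1112 CPM, a ratio of 2.10 (1.90 to 2.32). Klf2 stood at 291 and 582 CPM, a ratio of 2.0 (1.75 to 2.30), with much of its level in few cells. It was seen in 39.9% and 46.2% of thinned cells, with a median of 0 in each library. At least 10 UMIs were held by 2 of 153 and 14 of 223 thinned cells. Nr4a1, an orphan nuclear receptor, stood at 158 and 290 CPM, a ratio of 1.84 (1.53 to 2.23), whereas its relative Nr4a2 was at 253 and 268 CPM.

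**Figure D5:**
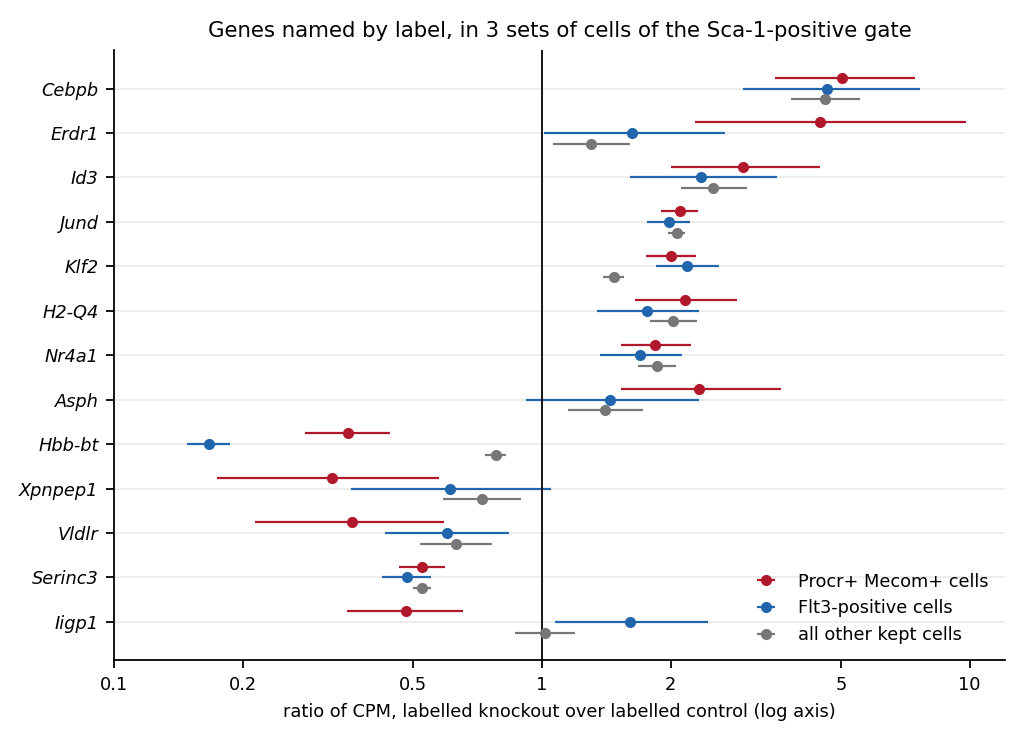
Ratio of labelled knockout over control, on a log axis, with exact conditional 95% intervals, for the 13 genes picked by interval, in Procr+ Mecom+, Flt3-positive and all other kept cells. Cebpb, Jund, Klf2 and Serinc3 lie on the same side of 1 in all cell sets, while Iigp1 changes side.

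Genes were named here where the 95% interval lay beyond 1.5-fold and no cell held over 20% of the UMIs, which gave 8 higher and 5 lower genes. The higher ones were Cebpb, Jund, Klf2 and Nr4a1 above, Id3, and H2-Q4, Asph and Erdr1. H2-Q4, a class I gene whose reads can be split among near-identical H2-Q copies, stood at 72.4 and 156 CPM. Asph, an aspartyl hydroxylase, stood at 29.7 and 69.1 CPM, a ratio of 2.32 (1.53 to 3.63), and Erdr1 at 9.92 and 44.4 CPM. On the lower side stood Serinc3, a membrane protein, with 617 and 323 CPM and a ratio of 0.524 (0.463 to 0.593), which was 0.483 in Flt3-positive and 0.524 in other cells. Vldlr, a lipoprotein receptor, stood at 50.6 and 18.2 CPM, and Xpnpep1, an aminopeptidase, at 40.7 and 13.1 CPM. Iigp1, an interferon-inducible GTPase, stood at 106 and 50.9 CPM, a ratio of 0.480 (0.350 to 0.655), in 30.7% and 19.3% of cells.

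Hbb-bt, an adult beta-globin gene, stood at 236 and 83.0 CPM, a ratio of 0.352 (0.279 to 0.441). It was seen in 22.2% and 13.5% of thinned cells, against 9.30% and 3.26% of plasma cells, and reached 24 and 11 UMIs in a cell. The near-identical Hbb-bs was at 11.9 and 21.1 CPM and Hba-a1 at 0.992 and 5.82 CPM, so the other globin genes did not share its level. How reads are divided between Hbb-bt and Hbb-bs is uncertain. In Flt3-positive control cells Hbb-bs reached 5521 CPM, beside which the Flt3-positive ratio of Hbb-bt, 0.166, stands.

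The libraries also differed in sex-linked transcripts. Xist without Y-linked UMIs marked 28 of the 153 control cells (18.3%) and 12 of the 223 labelled knockout cells (5.38%), and Y-linked UMIs without Xist marked 84 (54.9%) and 128 (57.4%). Cells with either mark were present in both libraries in unequal parts, so the comparison was repeated within each. Among Y-linked cells Id3 stood at 24.5 and 102 CPM, a ratio of 4.16 (2.35 to 7.95). Among Xist cells it had 0 UMIs in the control, and the 12 cells of the labelled knockout held 11 UMIs (146 CPM), which puts the exact lower 95% limit of the ratio at 5.98. Among cells with neither mark, 37 and 79, it stood at 74.1 and 81.2 CPM, a ratio of 1.10 (0.602 to 2.08). Cebpb was at 5.84, 3.71 and 5.10 in the same order, Jund at 1.92, 2.93 and 2.60, and Serinc3 at 0.543, 0.550 and 0.540, on 1 side of 1 throughout. Mycn was at 0.622, 0.149 and 0.733, with 2 UMIs in the labelled knockout Xist cells. Hbb-bt was at 0.292, 2.12 and 0.203, so its direction turned in the Xist cells.

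Markers of other cell types were summed beside these results. Jchain, the joining chain of secreted immunoglobulins, stood at 491 and 440 CPM against 217982 and 170449 CPM in plasma cells. Stromal markers were at 0 for 8 and 10 of 11 genes and summed to 6.94 and 9.46 CPM. T and NK markers were at 0 for 5 and 6 of 8 genes, and basophil and mast cell markers for 4 and 6 of 8. B lineage markers summed to 47.6 and 60.4 CPM. Erythroid markers summed to 250 and 115 CPM, nearly all of it Hbb-bt in the control. Neutrophil precursor markers summed to 983 and 1109 CPM, mostly Prtn3, and monocyte and dendritic markers to 343 and 364 CPM, with 9 and 7 of 12 at 0 and with Lyz2, a lysozyme, at 306 and 314 CPM. What part cells or free RNA of these kinds have in the values above was not tested.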

How the data were processed

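Single cells of 2 sort gates and 2 labels were captured with 10x Genomics Chromium and sequenced on a NextSeq 500 with 26 and 57 cycles, per the labels' protocols. The values are counts of UMIs per gene and cell over 27998 genes, as deposited by the authors. Cell Ranger, Seurat and the mm10 build are named, without versions, in the submitters' processing notes. Nothing was normalized in the deposited counts, and 10 listed symbols, most of them immunoglobulin or T cell receptor genes, had no match among the gene names.

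Groups came from the titles and genotype labels. UMIs were summed over the cells of a set in each library and divided by the sum (CPM), with exact Poisson intervals; ratios have exact conditional 95% intervals, and log2 medians used sums plus 0.5 UMIs. Genes needed at least 50 UMIs in the 2 sets together. Shares of cells were thinned to 3500 UMIs (seed 7), with plasma cells (at least 10% Jchain) as the gauge of free RNA. With 1 library per group no test was run, and cells were not used as replicates. The members, the 43 gene lists and the rule below were chosen with earlier results of these data known. Up to 15 genes per direction were named whose interval against the other cells lay beyond 2-fold in both libraries (0 higher and 170 lower passed). Up to 12 per direction were named between the labels by an interval beyond 1.5-fold. Genes used by the rule and ribosomal, mitochondrial, immunoglobulin and sex-linked genes were left out. List genes, Id1, Id3 and the sort antigens were also named. Recovery of known ratios was tested on simulated counts with counting error only and no spread between cells. It thus tested the calculation alone. Python 3.11.15, numpy 2.4.6, scipy 1.17.1, pandas 2.3.3 and scanpy 1.11.5 (Scrublet) were used. In all, 16 alternative settings were tried. Values of some list genes are not reported here.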

Additional observations from a re-analysis of the deposited data

Results flagged for a closer look

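Iigp1 differed in direction between neighbouring cell sets under the same contrast. In the Procr+ Mecom+ cells the ratio of labelled knockout over control was 0.480 (95% interval 0.350 to 0.655), and in Flt3-positive cells it was 1.60 (1.07 to 2.45), from 39.8 and 63.8 CPM. In all other cells it was 1.02, with 48.8 and 49.6 CPM. The gene had UMIs in 47 and 43 of the Procr+ Mecom+ cells, and the highest cell held 11 and 4. Plasma cells held 0 and 3 UMIs in all. The difference between the cell sets was not tested, since each group is 1 library.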

How the results depend on the processing

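No paired analysis was possible because each group is 1 library and the labels give no replicate numbers. The share of Procr+ Mecom+ cells in the control was 15.6% with a floor of 5000 UMIs, 8.31% with at least 2 Procr UMIs, 15.9% with Hlf required and 22.8% with no condition on Flt3. The same settings gave 9.21%, 4.74%, 9.91% and 15% in the labelled knockout, so the control share stayed the higher. Each of these shares is over all kept cells, so they do not set depth aside. Of the cells that passed the floor of 3500 UMIs, the rule kept 153 of 749 and 223 of 1467, a smaller gap. Genes higher than in the other cells numbered 88 with equal weight per cell, 60 after thinning, 255 and 62 with at least 20 and 100 UMIs, and 16 against matched cells. Lower genes numbered 262 after thinning, 784 and 327 with those UMI minima, and 105 against matched cells. Between the labels the higher genes numbered 116 with at least 2 Procr UMIs, 37 in Xist cells, and 651 and 63 with at least 20 and 100 UMIs; the lower ones numbered 148, 71, 602 and 64. These minima and smaller sets change how many genes are counted. Of 210 values of single genes between the labels, 196 moved by less than their interval, 13 moved further and 1 reversed: the log2 ratio of Hbb-bt was 1.08 in Xist cells, and the cause was not tested. Of the list medians 424 of 444 between the labels and 908 of 1051 between cell sets moved by under 0.2 on the log2 scale. Depth limits what was seen in a cell: at 3500 UMIs a gene at 100 CPM is often at 0.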

Other observations

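The share of Procr+ Mecom+ cells among Xist cells was 16.5% and 8.45%, and among cells with Y-linked UMIs 19.9% and 13.3%, so the control share was the higher in each. Ccl4, an inflammatory chemokine, had Fano factors of 8.81 and 6.22, and the highest cell held 31 and 21 UMIs.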
